A study of Mus musculus with 6 samples.

Results

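The genes described here encode the constitutive proteasome and its activators, read from RNA-seq of mouse peritoneal macrophages. Members were the protein-coding genes named Psma, Psmb, Psmc, Psmd or Psme with a number, without the inducible catalytic genes Psmb8, Psmb9 and Psmb10, which gave 40 of the 54532 genes in the table. RNA was taken from male wild-type C57BL/6J mice aged 6 to 8 weeks, whose peritoneal cells had been elicited with 1 mL of 3% thioglycolate and harvested 5 days later. Control cells were left untreated. Model cells were primed for 5.5 h with 500 ng/mL LPS, a component of bacterial walls, and then received 2 mM ATP for 0.5 h. MUS cells received that LPS and ATP together with 50 µM muscone, a macrocyclic ketone of musk, added 5 h after LPS and 0.5 h before ATP. Each group had 2 libraries, and nothing in the sources says that they came from separate animals or cultures, so the p-values measure the spread between these libraries, which may be technical. Levels are FPKM, fragments per kilobase of gene scaled by the authors for the depth of each library. Comparisons of levels between genes depend on the deposited gene lengths, which run from 899 to 8382 bases among the members tested.

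The proteasome is the protease that breaks down proteins marked with ubiquitin. Its 20S core is a barrel of outer alpha rings, which form the gate, and inner beta rings, which hold the catalytic sites. The 19S regulatory particle caps the barrel, with ATPases that unfold the substrate and non-ATPase subunits that bind ubiquitin and remove it, and dedicated chaperones help the cap to assemble. The activators encoded by Psme genes bind the barrel in place of the 19S cap. In macrophages, inflammatory signals are known to raise the inducible catalytic subunits and the activator pair Psme1 and Psme2, which take part in making peptides for MHC class I.

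The libraries held 15526321 to 17135442 fragments on genes, so the 38 members tested had between 134 fragments (Psmd9) and 17425 fragments (Psma6) in a library. The 38 had a mean FPKM of at least 1, as did 9794 genes in all, and the lowest single value among them was 1.22 FPKM (Psmd9 in MUS replicate 1). The deposited scale was 1.34 and 1.45 times the fragment total in Control and 0.909 to 0.998 times in the other libraries. Macrophage markers summed to 8443 to 13359 FPKM in the 6 libraries, with all 8 of 8 tested, against 0.209 to 1.5 FPKM for 8 T and innate lymphocyte markers and 3.93 to 6.17 for 6 B cell markers. Neutrophil markers summed to 20.3 and 34.1 FPKM in Control, against 60.2 to 113 in Model and 54.7 to 68.7 in MUS, but S100a9, Ly6g and Retnlg were at 0 in every library. The replicates were not alike for the proteasome genes. Model replicate 1 was above Model replicate 2 for 35 of 38 members, with a median ratio of 1.54, although it was above for 51.8% of all genes tested. Control replicate 2 was above Control replicate 1 for 27 of 38, with a median ratio of 1.22. Control replicate 2 also had 34.2 FPKM of Il1b, the gene of a cytokine that LPS induces, where Control replicate 1 had 0.55 FPKM and the treated libraries 4750 to 7646 FPKM.

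RefSeq promoter windows of 300 bases on build GRCm38.p6, most of each lying before a start, were at hand for 33 member genes in 36 windows. The sequences below are those upstream of members whose levels or ratios are described in detail, together with the start of Psme1, and capitals mark a match to a motif. The letters were read 5′ to 3′ on the strand of the gene.
Psme2, chr14:55591114-55591201, minus strand, GGGCGG on the other strand: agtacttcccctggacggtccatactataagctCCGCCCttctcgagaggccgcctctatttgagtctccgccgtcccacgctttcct
Psme1, chr14:55578494-55578523, plus strand, first transcribed bases, GAAA and GAAA parted by 2 bases on the other strand: gagctgtgcTTTCGCTTTCccttcccgctg
Psma3, chr12:70974473-70974572, plus strand, CCAAT: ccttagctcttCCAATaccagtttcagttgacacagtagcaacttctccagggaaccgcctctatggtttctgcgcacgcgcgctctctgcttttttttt
Psma6, chr12:55384077-55384221, plus strand, CCAAT on either strand: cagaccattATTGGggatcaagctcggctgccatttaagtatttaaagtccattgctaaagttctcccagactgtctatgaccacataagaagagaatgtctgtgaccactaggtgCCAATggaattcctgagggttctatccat
Psmb5, chr14:54618023-54618075, minus strand, TGACNNNGC: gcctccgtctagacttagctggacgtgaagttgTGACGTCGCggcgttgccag
Psmb6, chr11:70525277-70525356, plus strand, TGACNNNGC: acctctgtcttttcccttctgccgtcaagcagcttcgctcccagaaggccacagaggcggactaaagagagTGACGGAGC

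Motifs were searched on both strands of these windows and of all 32851 windows in the reference. GGGCGG, the core of GC boxes, was in 22 of the 36 member windows (61.1%), against 35.7% of all windows. It can occur in any stretch rich in G and C, and the median GC content was 58.2% in member windows and 52.7% in all windows. CCAAT, the box bound by NF-Y, was in 13 member windows (36.1%, against 37.4%). TGACNNNGC, the core of the antioxidant response element to which Nfe2l1 and Nfe2l2 bind, was in 6 (16.7%, against 12.4%), namely those of Psmb5, Psmb6, Psmc6, Psmd9, Psmd12 and Psme4. The core of the interferon-stimulated response element, spelled GAAA, any 2 bases and GAAA, was in 4 (11.1%, against 3.44%), namely those of Psmb3, Psmd4, Psmd9 and Psme1, and in Psme1 it began 9 bases after the start. TGACGTCA, the cAMP response element, was in 0 member windows (1.79% of all windows). A match describes the letters and shows no binding.

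Most proteasome genes tested had between 10 and 50 FPKM in Control, and fewer did in the treated libraries. There were 30 and 28 of 38 members in that band in Control, against 19 and 26 in Model and 20 and 21 in MUS. Over the 38 members, the median level was 18.6 and 25 FPKM in Control, against 39.9 and 28 in Model and 41.3 and 36.5 in MUS. Psma6, an alpha subunit, had 84.6 and 172 FPKM in Control, against 1001 and 427 in Model and 511 and 375 in MUS. It was the highest member in 5 of 6 libraries, and Psmd8, a 19S lid subunit whose level was looked up after its values were seen, was the highest in Control replicate 1 with 94.6 FPKM. Psma6 made up 37.7% and 46% of the summed FPKM of the 7 alpha genes in Control, against 65.1% and 56.4% in Model and 55.4% and 50.6% in MUS, although the alpha ring holds the same number of each subunit. Its gene length of 1234 bases is the shortest of the 7, whose others run from 1321 to 3894 bases, which raises its share. The lowest members in FPKM were Psmd9 and then Psmd5, both 19S assembly chaperones, in each of the 6 libraries. Their gene lengths are 7248 and 7230 bases, against a median of 2814 over the members tested, which lowers their FPKM. In fragments Psmd5 had 674 and 1129 in Control, above the 547 and 748 of Psmb7. The medians of the 7 beta genes tested were 40 and 38.6 FPKM in Control, above those of the 11 non-ATPase genes (17.7 and 19.1 FPKM). This order holds for FPKM and depends on gene length, which runs from 899 to 4595 bases in the former and from 2261 to 7265 in the latter.

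Members that failed the filter were Psma8 and Psmb11. Psma8, the alpha subunit of the testis proteasome, had 0.956 and 0.594 FPKM in Control, against 0.544 and 0.152 in Model and 0.234 and 0.327 in MUS. Psmb11, the catalytic subunit of cortical thymus epithelium, was listed at 0 in 5 libraries and had 1 fragment in Model replicate 1. That is 4 to 37 fragments of Psma8 and at most 1 of Psmb11 in a library.

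**Figure D1:**
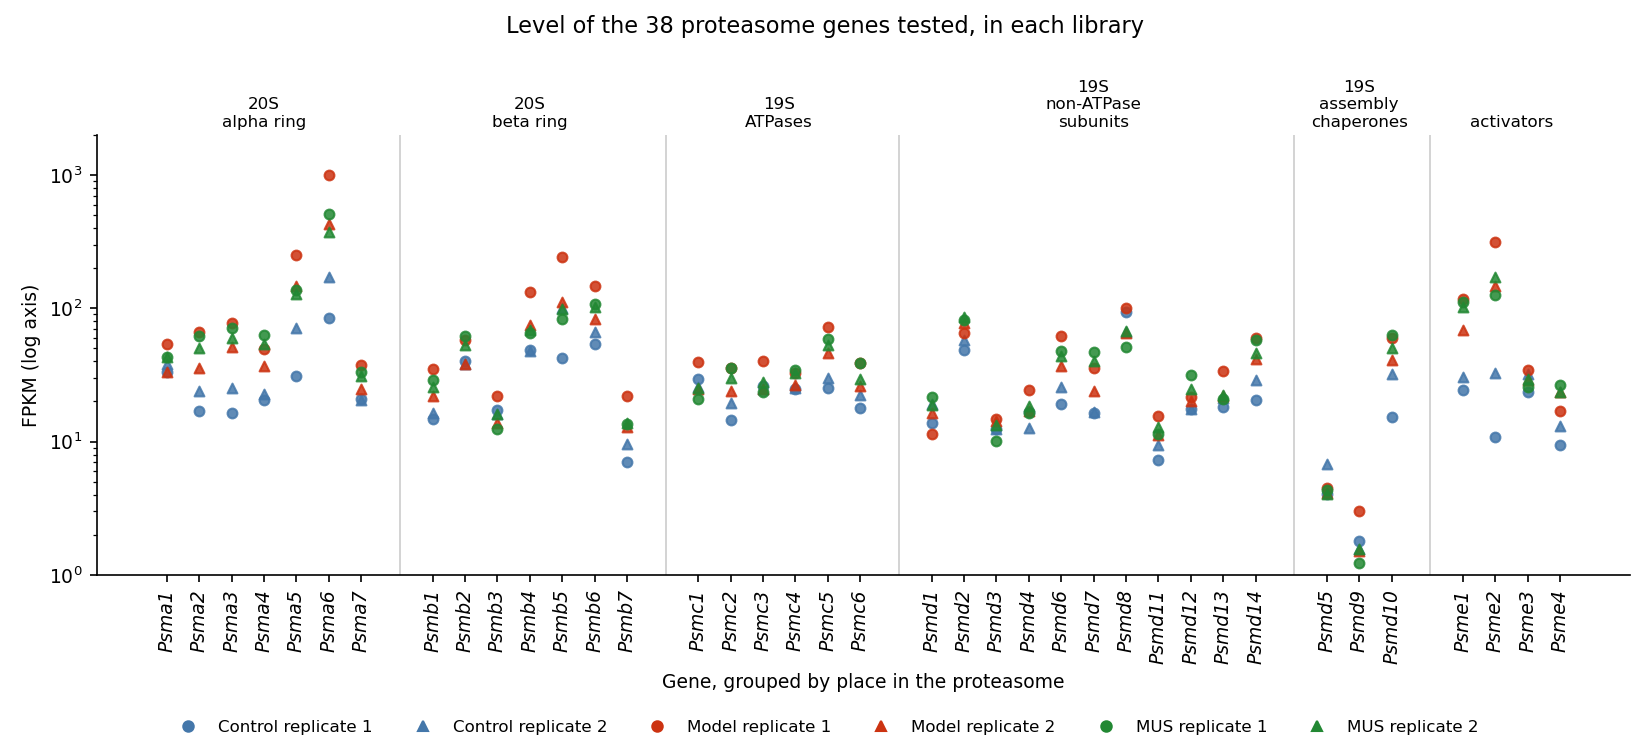
Level of the 38 proteasome genes tested, in FPKM on a log axis, with 1 point per library. Colours give the groups and symbols the replicates. Psma6 stands at 375 to 1001 FPKM in the treated libraries, and Model replicate 1 is above Model replicate 2 for 35 of 38 genes.

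Model vs. Control shows how the proteasome genes stood after LPS and ATP. On the deposited scale 5 of 38 members rose and 0 fell at an adjusted p of at most 0.05 in limma, and the 5 were also DEGs, with an absolute log2 fold change over 1. They were the activators Psme1 and Psme2 and the alpha genes Psma3, Psma5 and Psma6. This share, 13.2%, is near that of all genes tested, of which 10.3% rose and 9.5% were upregulated DEGs. The members differed more from other genes in their middle than in their calls. Their log2 fold changes had a median of 0.70, with 36 of 38 above 0, against a median of 0.041 and 52.5% above 0 over all genes tested. Fewer were above 0 under other scalings, namely 25 of 38 with quantile normalization (46% of all genes) and 21 of 38 with FPKM rescaled to each library's fragment total (29.1% of all genes). At an unadjusted p under 0.05, 20 of 38 were higher and 0 lower, against 18.7% of all genes higher. With fragment-total scaling these were 5 higher (9.85% of all genes) and 2 lower (34.4% of all genes). In 28 of 38 both Model libraries were above both Control libraries (32.6% of all genes), and in 0 both were below (28.5% of all genes).

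The change differed in size between parts of the complex. Median log2 fold changes were 1.23 for the 7 alpha genes, 0.87 for the 7 beta genes, 0.47 for the 6 ATPase genes, 0.46 for the 11 non-ATPase genes, 0.24 for the 3 assembly chaperones and 1.23 for the 4 activators. Calls were made for 3 alpha genes and 2 activators, and for 0 genes of the other parts. These medians are descriptions, and the difference between parts was not tested. That of the chaperones turned to -0.13 with fragment-total scaling and to -0.098 without Model replicate 1.

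**Figure D2:**
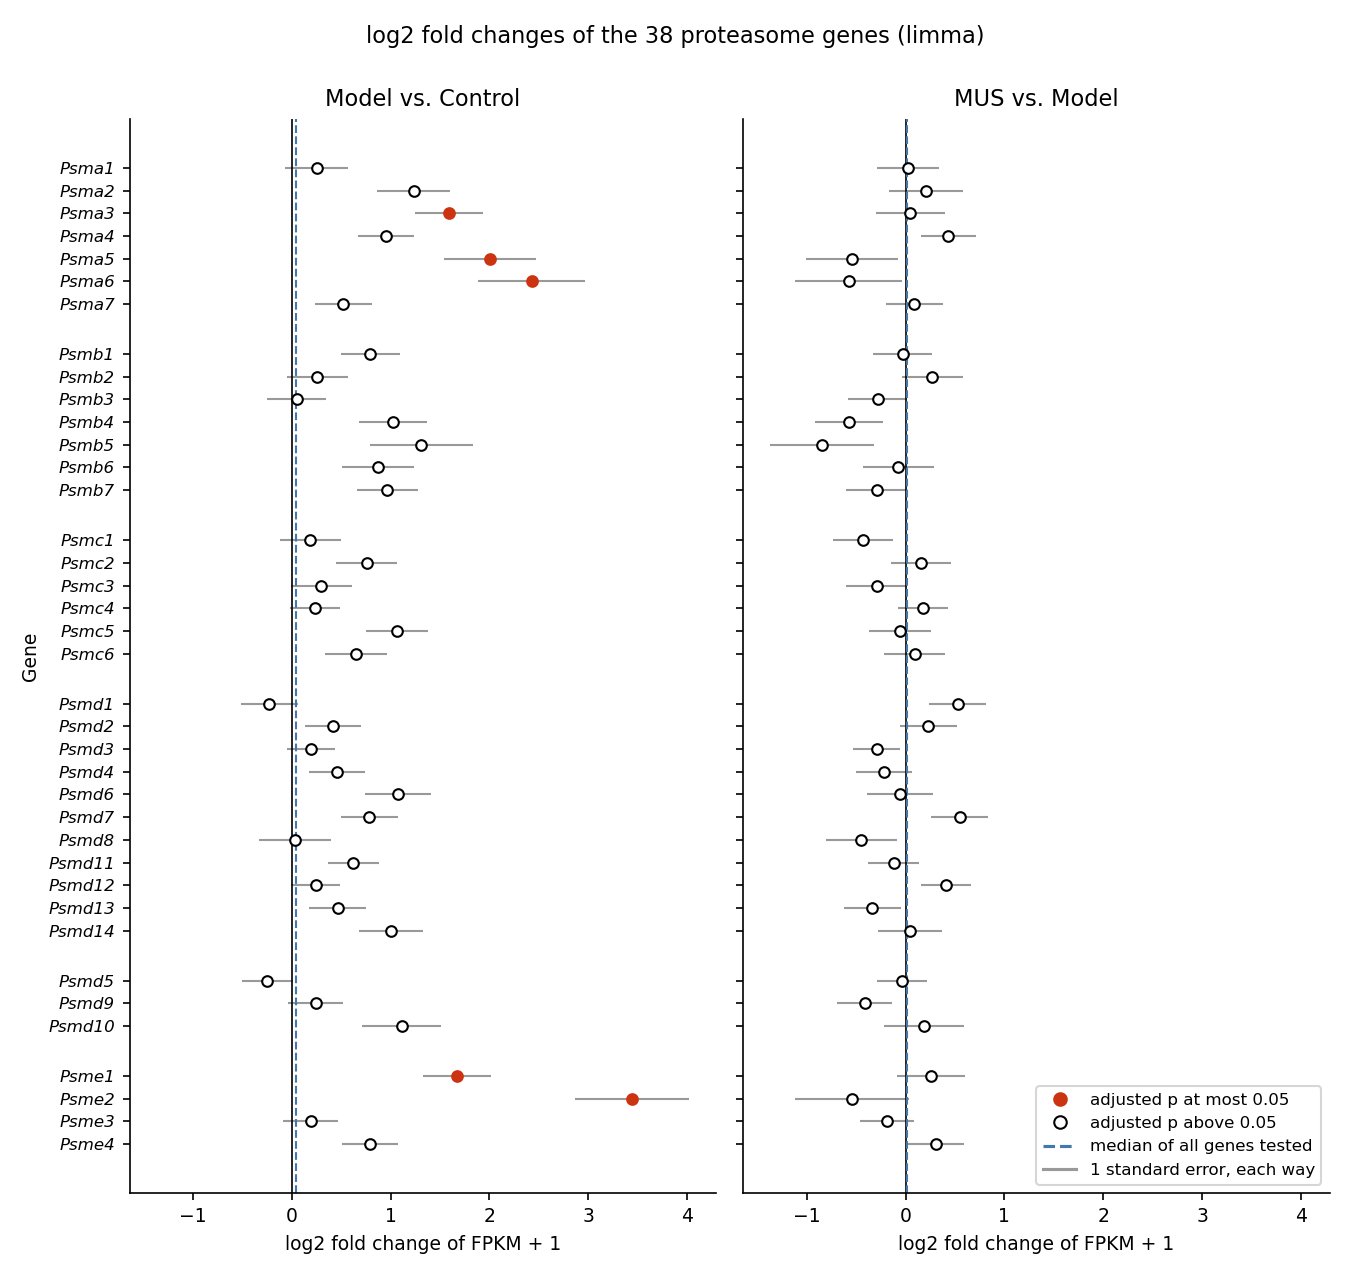
log2 fold change of FPKM + 1 for each of the 38 proteasome genes in the comparisons Model vs. Control and then MUS vs. Model, from limma on 6 libraries. Bars are 1 standard error each way, filled points passed an adjusted p of 0.05, and the dashed line is the median of all genes tested (0.041 and 0.012). In Model vs. Control 36 points lie above 0 and 5 are filled, and in MUS vs. Model 17 lie above 0 and none is filled.

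Psme1 and Psme2 encode the subunits of PA28αβ, the ring-shaped activator induced by interferon-γ. They are neighbours on chromosome 14 (GRCm38 55578123 to 55581529 on the plus strand and 55587441 to 55591113 on the minus strand). Psme2 had 10.8 and 32.6 FPKM in Control, against 315 and 148 in Model and 127 and 173 in MUS. Its libraries did not overlap between Control and the treated groups, but the Control libraries themselves differed 3.01-fold. In Model vs. Control its log2 fold change was 3.44 (SE 0.578, adjusted p = 0.011 in limma). Between libraries of the same replicate number, called a batch here, it was 4.74 in batch 1 and 2.15 in batch 2. The sample titles do not say that libraries of the same number were handled together. Psme1 had 24.5 and 30.5 FPKM in Control, against 117 and 68.7 in Model and 111 and 103 in MUS. Its log2 fold change was 1.68 (SE 0.345, adjusted p = 0.020), with 2.21 in batch 1 and 1.14 in batch 2. The ratio of Psme2 to Psme1 within a library does not depend on the scaling. It was 0.442 and 1.07 in Control, against 2.7 and 2.15 in Model and 1.15 and 1.68 in MUS, so that Psme2 was above Psme1 in the 4 treated libraries and in Control replicate 2.

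Part of the Psme2 sequence is shared with another gene. Of the 50-base stretches of its transcripts, 28.3% also occur in those of other genes, mainly Psme2b, and 69.3% of those of Psme2b occur elsewhere, mainly in Psme2. How the authors' counting split such fragments is not given in the sources used here, so the values of Psme2 are uncertain. Psme2b had 773 and 2353 fragments in Control, against 3821 and 2948 in Model and 1925 and 1975 in MUS. It took 63.9% and 64.1% of the fragments of the pair in Control, but 28.5% to 42.2% in the treated libraries. When the fragments of both were added, the log2 ratio of Model over Control was 2.73 on the deposited scale and 2.18 on the fragment-total scale.

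The other activators moved less. Psme4, which encodes PA200, an activator of nuclear proteasomes, had 9.45 and 13 FPKM in Control, against 16.9 and 23.6 in Model and 26.6 and 23.5 in MUS. Both Model libraries were above those of Control, and its log2 fold change was 0.79 (SE 0.285, adjusted p = 0.101). Psme3, which encodes the nuclear activator PA28γ, had 23.7 and 32 FPKM in Control, against 34.2 and 29.2 in Model and 25.7 and 29.7 in MUS. Its groups overlapped, and its log2 fold change of 0.19 (SE 0.277, adjusted p = 0.655) turned to -0.34 when FPKM were scaled to the fragment total. Against Psme3, Psme1 had a ratio of 1.03 and 0.955 in Control, against 3.41 and 2.35 in Model and 4.32 and 3.48 in MUS.

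**Figure D3:**
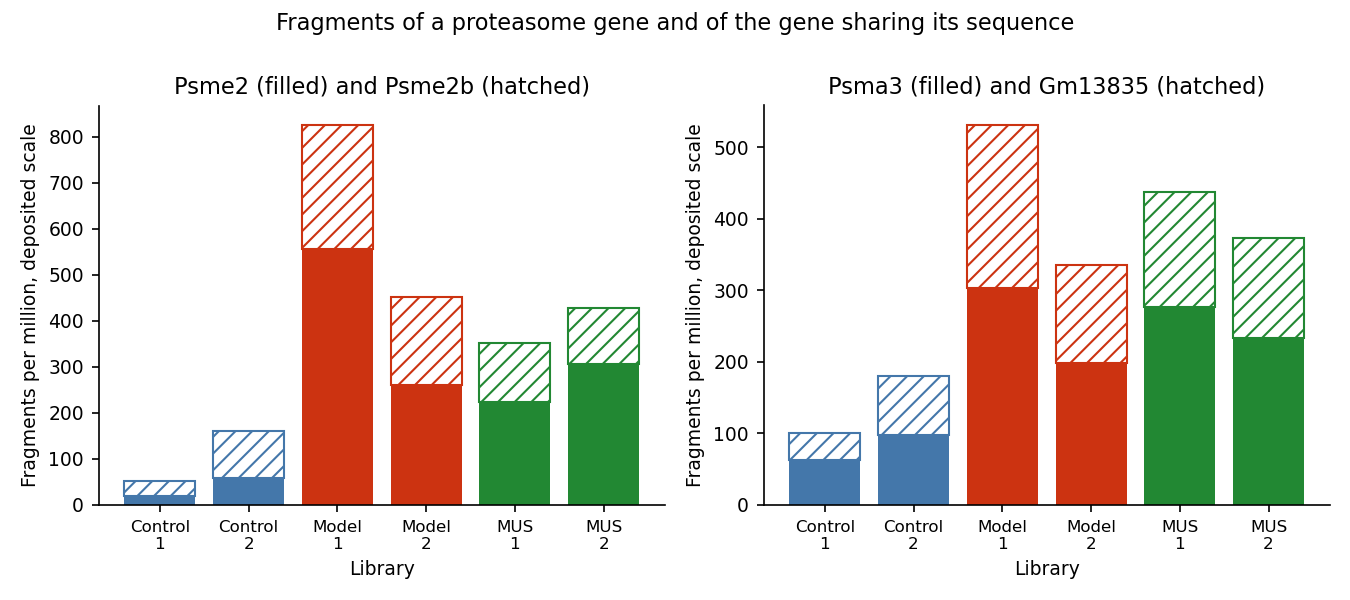
Fragments on the deposited per-million scale for Psme2 with Psme2b and for Psma3 with the pseudogene Gm13835, stacked in each library. Filled bars are the proteasome gene and hatched bars the gene that shares its sequence. The sums of the Model libraries are above those of both Control libraries in each panel, and Psme2b takes 63.9% and 64.1% of its pair in Control.

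The alpha genes encode the outer rings, whose tails close the gate of the barrel. In Model vs. Control all 7 tested had a log2 fold change above 0 on the deposited scale (52.5% of all genes), and 3 passed the test. Above 0 were 6 of 7 with quantile normalization (46% of all genes) and 5 of 7 with fragment-total scaling (29.1% of all genes). Psma6, on chromosome 12 (55384222 to 55418454), changed by 2.43 (SE 0.542, adjusted p = 0.026), from 84.6 and 172 FPKM to 1001 and 427. Batch 1 gave 3.55 and batch 2 gave 1.31, with the lower Control library and the higher Model library both in batch 1, and both Model libraries were above both of Control. Psma6 shares none of its 50-base stretches with another gene. Against Psma7, an alpha subunit with levels of 20.4 to 37.3 FPKM looked up after its values were seen, it had a ratio of 4.02 and 8.32 in Control, against 26.8 and 17.3 in Model and 15.2 and 12 in MUS.

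Psma5, on chromosome 3 (108256926 to 108279974), had 31.2 and 71 FPKM in Control, against 252 and 147 in Model and 136 and 127 in MUS. All treated libraries were above those of Control, and the log2 fold change was 2.01 (SE 0.467, adjusted p = 0.030). Psma3, on chromosome 12 (70974621 to 70996347), had 16.3 and 25.1 FPKM in Control, against 77.8 and 51 in Model and 71.1 and 59.8 in MUS. Its log2 fold change was 1.59 (SE 0.346, adjusted p = 0.024), and again the groups did not overlap. Both genes share sequence with processed pseudogenes. Psma5 shares 49.1% of its stretches, mainly with Gm8394, which had 4.86% to 7.86% of the fragments of the pair. Psma3 shares 15.4%, mainly with Gm13835, which had 36.8% to 46% of the fragments of its pair. For Psma3 and Gm13835 together the log2 ratio of Model over Control was 1.65 on the deposited scale and 1.1 on the fragment-total scale. Psma2 and Psma4 had log2 fold changes of 1.23 and 0.96 that missed the threshold (adjusted p = 0.064 and 0.061).

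Psmb5, Psmb6 and Psmb7 encode the constitutive catalytic subunits, with chymotrypsin-like, caspase-like and trypsin-like activity. Psmb5 had 42.7 and 99.9 FPKM in Control, against 241 and 111 in Model and 83 and 98.8 in MUS. Model was above Control in both libraries, although Control replicate 2 and Model replicate 2 were close. Its log2 fold change of 1.31 (SE 0.523, adjusted p = 0.129) did not pass, and 54.1% of its stretches are shared with other genes, mainly the pseudogene Gm3375, which had 0.499 to 2.23 FPKM. Psmb6 had 53.7 and 66.8 FPKM in Control, against 147 and 82.7 in Model and 107 and 103 in MUS, with a log2 fold change of 0.87 (SE 0.364, adjusted p = 0.143). Psmb7 had 6.99 and 9.56 FPKM in Control, against 22.1 and 13 in Model and 13.6 and 13.8 in MUS, with a log2 fold change of 0.97 (SE 0.308, adjusted p = 0.074). Psmb4, a beta subunit without a catalytic site, had 48.5 and 48.2 FPKM in Control, against 132 and 75.2 in Model and 65.4 and 68.4 in MUS, with a log2 fold change of 1.03 (SE 0.344, adjusted p = 0.084).

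The inducible counterparts Psmb8, Psmb9 and Psmb10, which replace Psmb5, Psmb6 and Psmb7 in the immunoproteasome, rose by log2 fold changes of 2.85, 2.45 and 2.51 (adjusted p = 0.008, 0.006 and 0.022). They made up 24% and 29.8% of the summed FPKM of the 6 catalytic genes in Control, against 50.9% and 52.2% in Model and 42.1% and 47.8% in MUS. Psmb8 was 12.3% and 12.2% of Psmb8 plus Psmb5 in Control, against 28.4% and 33.2% in Model and 39.3% and 37.9% in MUS. Psmb9 was 7.59% and 9.9% of Psmb9 plus Psmb6 in Control, against 23.3% and 25.5% in Model and 16.2% and 21.2% in MUS. Psmb10 was 76.1% and 84.9% of Psmb10 plus Psmb7 in Control, against 92.8% and 91.6% in Model and 84.4% and 88.9% in MUS. Both MUS libraries were thus above both of Model for the Psmb8 share and below them for the Psmb9 and Psmb10 shares, differences that were not tested. Such shares are ratios within a library and so do not depend on the scaling between libraries, but fragments shared by Psmb5 and its pseudogene enter them. Psmb9 also overlaps Tap1 on the genome (mean 73.8 FPKM), and Psmb7 overlaps genes of at most 9.43 FPKM, Nek6 among them. How fragments in such overlaps were counted is not given in the sources used here. Gene lengths enter their size too, such as 1705 bases for Psmb10 and 3421 for Psmb7.

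**Figure D4:**
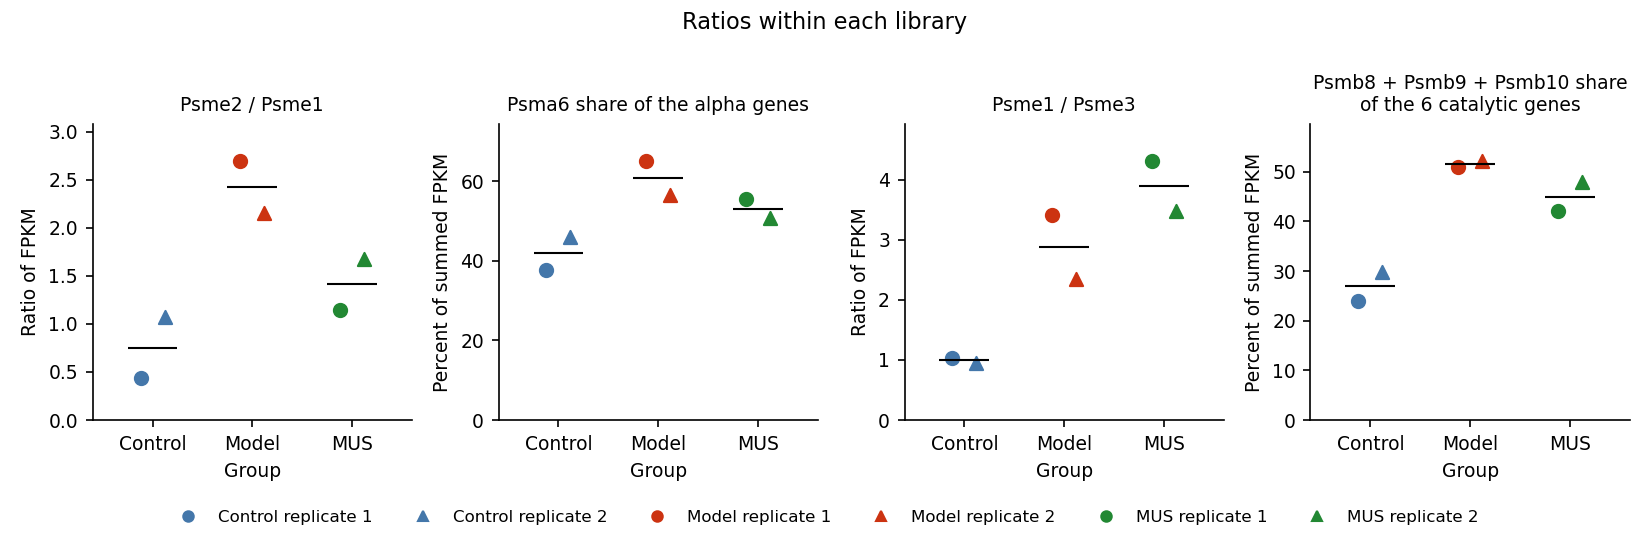
Ratios and shares of FPKM within each library, by group, with 1 point per library and the mean of the 2 libraries as a line. From left to right they are Psme2 over Psme1, the Psma6 share of the 7 alpha genes, Psme1 over Psme3, and the share of Psmb8, Psmb9 and Psmb10 among the 6 catalytic genes. In each panel both Model libraries lie above both Control libraries, with the inducible share at 24% and 29.8% in Control and 50.9% and 52.2% in Model.

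No 19S gene passed the test in Model vs. Control. Of the 17 genes of ATPases and non-ATPase subunits, 16 had a log2 fold change above 0 on the deposited scale (52.5% of all genes). With fragment-total scaling 3 of 6 ATPase genes and 4 of 11 non-ATPase genes were above 0 (29.1% of all genes). With quantile normalization 3 of 6 and 6 of 11 were (46% of all genes). Psmd7, a lid subunit that pairs with the deubiquitinase Psmd14, had 16.4 and 16.7 FPKM in Control, against 35.7 and 23.9 in Model and 46.7 and 40 in MUS. Its log2 fold change was 0.78 (SE 0.288, adjusted p = 0.107). Psmd1, the scaffold of the 19S base, had 13.7 and 19.1 FPKM in Control, against 11.4 and 16.4 in Model and 21.5 and 18.9 in MUS, with overlapping groups and a log2 fold change of -0.23 (SE 0.289, adjusted p = 0.611). Psmd5, an assembly chaperone, had 4.08 and 6.83 FPKM in Control, against 4.51 and 4.12 in Model and 4.34 and 4.03 in MUS, with a log2 fold change of -0.25 (SE 0.255, adjusted p = 0.526).

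The size of these changes depends on how the libraries are scaled, and less so when set against all genes. With FPKM rescaled to each library's fragment total, the members' median was 0.18 and that of all genes was -0.40. The medians of the ATPase and non-ATPase genes were then -0.054 and -0.061, so their direction turns with the scale, while those of alpha genes and activators were 0.71 and 0.71. Relative to the median of all genes, the members stood 0.66 higher on the deposited scale, 0.58 with fragment-total scaling and 0.37 with quantile normalization. With fragment-total scaling Psme1, Psme2, Psma3, Psma5 and Psma6 were again the 5 members called, when 7.19% of all genes rose, and quantile normalization called Psma6, Psme1 and Psme2, when 8.04% did.

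**Figure D5:**
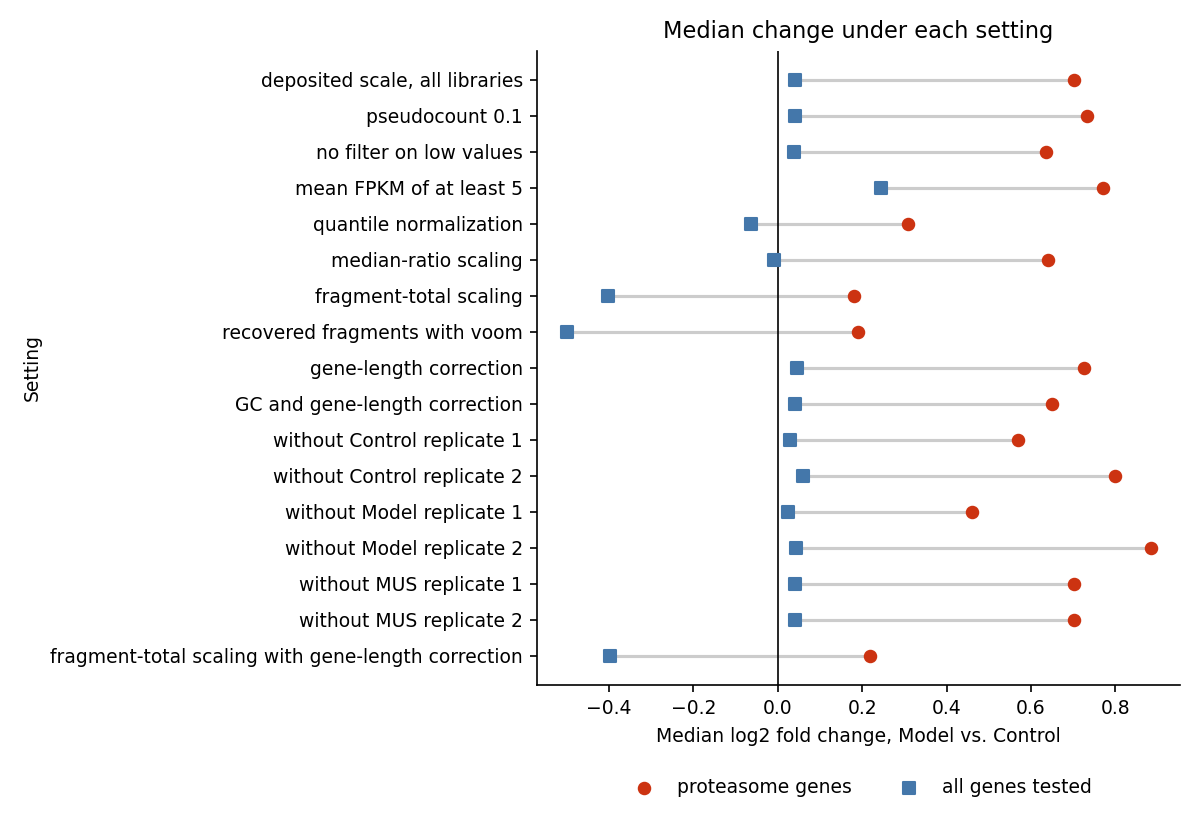
Median log2 fold change of the proteasome genes (circles) and of all genes tested (squares) in Model vs. Control, on the horizontal axis, under each setting of scaling, filter, correction or left-out library. Scaling to fragment totals moves both medians down, from 0.70 to 0.18 and from 0.041 to -0.40, and without Model replicate 1 the median of the proteasome genes is 0.46.

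The calls also changed when a library was left out. This removes residual degrees of freedom as well, so the change cannot be put down to the values of that library alone. Without Model replicate 1, 0 members passed (5.64% of all genes rose) and the median was 0.46, with 30 of 38 above 0. Psme2 then had a log2 fold change of 2.90 (adjusted p = 0.064) and Psma6 one of 1.81 (adjusted p = 0.107). Without Control replicate 1 only Psme2 passed (2.69, adjusted p = 0.030), when 5.45% of all genes rose. Without Control replicate 2 there were 8 of 38 members called, when 12.7% of all genes rose, and without Model replicate 2 there were 10 of 38, when 7.93% did. Leaving out MUS replicate 1 or 2, which removes residual degrees of freedom from the model, left Psme2 as the only call (5.57% and 5.54% of all genes rose). Within batches the median of the members was 1.04 in batch 1, with 37 of 38 above 0, and 0.29 in batch 2, with 28 of 38 above 0, against 0.045 and 0.012 for all genes. Model replicate 1 held more of short genes, as its median deviation from the mean of a gene was 0.263 in the shortest of 5 equal groups of genes by length and -0.211 in the longest. The members tested have a median gene length of 2814 bases, against 3910 for all genes, and 29 of 38 are shorter than that. After a correction for gene length 11 members rose, when 11.6% of all genes did, and the median was 0.73. When the same fit also held the replicate block, the calls were again the 5 made without the correction (10.5% of all genes rose).

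MUS vs. Model asks what muscone changed in cells that had received LPS and ATP. No member passed the test, which with 2 libraries per group does not show that muscone changed none. Over all 9794 genes limma made 0 calls (0% of genes) at an adjusted p of at most 0.05, and the fit of recovered fragments with voom also made 0. The paper does report DEGs in this comparison, most of them downregulated, from DESeq2, which was not run here. At an unadjusted p under 0.05 there were 0 members among 825 genes (8.42% of all genes). The members' median log2 fold change was -0.047, with 17 of 38 above 0, against 0.012 and 51.3% for all genes. Both MUS libraries were above both of Model for 5 members (21.2% of all genes) and below for 4 (21% of all genes), namely Psma5, Psmb4, Psmb5 and Psmd3.

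The members with the largest values did not pass the test. Psmd7 had a log2 fold change of 0.55 (SE 0.288, adjusted p = 0.681), Psmd1 of 0.53 (SE 0.289, adjusted p = 0.699) and Psma4 of 0.43 (SE 0.282, adjusted p = 0.743). Psma4 had 20.6 and 22.8 FPKM in Control, against 49.6 and 37.2 in Model and 63.5 and 53.6 in MUS, and in these 3 genes both MUS libraries were above both of Model. In the other direction Psmb5 had -0.85 (SE 0.523, adjusted p = 0.733), Psma6 -0.58 (SE 0.542, adjusted p = 0.833) and Psmb4 -0.57 (SE 0.344, adjusted p = 0.727). Psma6 in MUS replicate 1 lay between the Model libraries. The 7 beta genes had a median of -0.28, with 6 of 7 below 0, but without Model replicate 1 that median was 0.073. The members' median was 0.19 without Model replicate 1 and -0.32 without Model replicate 2, and it was -0.31 in batch 1 and 0.18 in batch 2. Its direction therefore turned with the Model library used.

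MUS vs. Control shares its Control libraries with Model vs. Control and its MUS libraries with MUS vs. Model, so it is no independent comparison. The members' median was 0.65 (0.040 for all genes), with 32 of 38 above 0 (52.3% of all genes), and 8 members rose, each of them a DEG, against 13% of all genes called higher and 11.3% upregulated DEGs. They were Psme2 (2.91, adjusted p = 0.014), Psme1 (1.93, adjusted p = 0.010), Psma6 (1.85, adjusted p = 0.047), Psma3 (1.64, adjusted p = 0.017), Psma2 (1.44, adjusted p = 0.032), Psma4 (1.39, adjusted p = 0.015), Psmd7 (1.33, adjusted p = 0.018) and Psme4 (1.10, adjusted p = 0.033), with values in limma. Psma2 had 16.9 and 23.8 FPKM in Control, against 66 and 35.8 in Model and 62.2 and 50.8 in MUS. Both MUS libraries were above both of Control for 26 members (39.6% of all genes) and below for 3 (33.8% of all genes), namely Psmb3, Psmc1 and Psmd9. Within batches the median was 0.84 and 0.50, and 31 of 38 were above 0 in each. Without Control replicate 1 the calls fell to 2 (6.89% of all genes rose), and to 0 without MUS replicate 1 (1.59%) or MUS replicate 2 (4.3%). With the replicate number as a block Psma6 was not called (adjusted p = 0.052), which left 7 (13.7% of all genes rose).

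Genes that build or feed the proteasome but lie outside these families were listed as 5 factors of 20S assembly, 12 other 19S or associated proteins, 12 genes of substrate delivery, 5 ubiquitin genes and 6 transcription factors. Of the 40 genes 39 were tested, and their log2 fold changes in Model vs. Control had a median of 0.12, against 0.041 for all genes tested. None rose (10.3% of all genes rose) and 2 fell (6.94% of all genes fell). Zfand2a, a stress-induced protein that binds the proteasome, fell by 1.35 (adjusted p = 0.027), with 35.2 and 23.5 FPKM in Control and 8.84 and 12.8 in Model. Ddi2, the protease that releases Nfe2l1 for its work on proteasome genes, fell by 1.20 (adjusted p = 0.020), with 7.56 and 5.38 FPKM in Control and 1.82 and 2.69 in Model. The other genes with large values were Pomp, the maturation factor of the 20S core (1.30, adjusted p = 0.051), Rps27a, a ubiquitin fusion gene (1.09, adjusted p = 0.389), and Foxo4 (-1.38, adjusted p = 0.070). Nfe2l1 had 15.9 and 24.9 FPKM in Control, against 23.3 and 25.7 in Model and 12.9 and 19.5 in MUS, values looked up after the calls were known.

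In MUS vs. Model 0 of these 39 genes changed (0% of all genes), and their median was 0.11 (0.012 for all genes). In MUS vs. Control 2 rose (13% of all genes rose) and 3 fell (11.4% of all genes fell). Those that rose were the proteasome-binding Zfand5 (1.12, adjusted p = 0.050) and the 19S subunit Sem1 (1.11, adjusted p = 0.050). Those that fell were Foxo4 (-1.64, adjusted p = 0.034), the shuttle factor Ubqln2 (-1.25, adjusted p = 0.013) and Ddi2 (-1.13, adjusted p = 0.019). These names follow from the calls.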

How the data were processed

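RNA-seq was performed on poly-A RNA from peritoneal macrophages in 3 groups of 2 libraries. The authors deposited FPKM per gene and library, which the study's methods credit to RSEM. The submitters' processing notes name HISAT2, featureCounts 1.5.0-p3 and GRCm39, but 98.3% of the gene identifiers found in GENCODE M21 had the GRCm38 positions, as did 39 of 40 members. The product of FPKM and gene length came in whole steps in every library (tolerance 0.1), and these steps gave the fragments. Fragments cover counting error only.

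limma 3.58.1 (R 4.3.3) was run on log2(FPKM + 1) for 9794 genes whose mean FPKM was 1 or more. The 6 libraries entered 1 model of 3 groups with a mean-variance trend and Benjamini-Hochberg adjustment over all genes tested (3 residual and 4.04 prior degrees of freedom). Fold changes are on that scale, which understates changes of low genes. A gene changed at an adjusted p of at most 0.05 and was a DEG with an absolute log2 fold change over 1. The study's methods name DESeq2, which was not run. The recovered fragments were fitted with limma's voom as an alternative. An exact test of 2 against 2 libraries could not go below p = 0.333. The code of the fit was tested on simulated data, which does not show that the 2 libraries of a group are independent.

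The replicate number in the sample titles was used as the batch. The titles do not say that libraries of the same number were handled together. Differences between replicates 1 and 2 correlated across genes at 0.12 (Control and Model), 0.14 (Model and MUS) and -0.09 (Control and MUS), and the block was used as an alternative.

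Members, subgroups, pathway genes and markers were chosen with earlier results of these data known. Values are given for members that were DEGs or had the largest changes, for the catalytic genes Psmb5, Psmb6 and Psmb7 and for the activators. Shared sequence is the share of 50-base stretches of a gene's GENCODE M21 transcripts that occur in transcripts of other genes. Protein sequences were not analysed here, and 1 pathway gene is not reported here. All 6 columns were used. Alternatives changed the pseudocount, filter, scaling, model, corrections for gene length and GC content, or left out a library.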

Additional observations from a re-analysis of the deposited data

How the results depend on the processing

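With 2 libraries per group, the members called against Control changed with each library left out, which also removes residual degrees of freedom. Members with shared sequence or low depth are the least certain. The members' median in Model vs. Control kept its direction under each alternative. The share of all genes that rose moved too. In Model vs. Control it was 10.3%, then 8.04% with quantile normalization, 7.19% with fragment-total scaling and 11.6% with the gene-length correction. In MUS vs. Control it was 13%, and 13.7% with the replicate block. Where no such share is printed, a count of members called cannot be set against all genes. In MUS vs. Model the count of members changed was 0 under each alternative.

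In Model vs. Control the 5 members changed became 0 with no filter on low values, where more genes were tested. With only the 2 groups compared 1 member changed, and with the GC and gene-length correction 10 did. No share of all genes is given beside these counts, so they cannot be set against all genes. With quantile normalization 3 members changed (8.04% of all genes rose) and with the gene-length correction 11 did (11.6% of all genes rose). The members' median of 0.70 was 0.31 with quantile normalization, 0.18 with fragment-total scaling, 0.19 with voom on fragments and 0.22 with fragment-total scaling and the gene-length correction, an alternative chosen after seeing the data. The 1475 DEGs of all genes became 260 with no filter, 797 with only the 2 groups compared, 2734 with voom, 2222 with fragment-total scaling and gene-length correction and 692 to 2077 when a library was left out.

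In MUS vs. Control the 8 members became 0 with no filter, 5 with quantile normalization, 5 with fragment-total scaling and 13 with the gene-length correction. The share of all genes is not given beside these counts either. The median of 0.65 was 0.22, 0.12, 0.13 and 0.24 with quantile normalization, fragment-total scaling, voom and fragment-total scaling with gene-length correction. The 1980 DEGs became 456 with no filter, 3144 with voom and 184 to 2398 without a library. In MUS vs. Model the 0 DEGs became 1 with a pseudocount of 0.1, 7 with only the 2 groups compared, 1 with either correction and 0 to 31 without a library.

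With the replicate block the DEGs of MUS vs. Model numbered 4. The block took Psma6 from the members called in MUS vs. Control, which left 7, and changed no other call of a member in the fit without a correction. With the gene-length correction the block took the members called from 11 to 5 in Model vs. Control and from 13 to 10 in MUS vs. Control, and with the GC and gene-length correction from 10 to 5 and from 12 to 9.

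Directions turned for values that did not pass the test in the fit of all libraries on the deposited scale, and the cause was not tested. The ATPase genes' median in Model vs. Control was -0.028 with quantile normalization, -0.054 with fragment-total scaling, -0.056 with voom and -0.026 with fragment-total scaling and gene-length correction. That of the non-ATPase genes was -0.061, -0.064 and -0.033 with the last 3 of these, and that of the chaperones -0.13, -0.20 and -0.086, with -0.098 without Model replicate 1. Psme3 was at -0.34, -0.34, -0.35 and -0.31 under the 4, and -0.015 to 0.40 without a library. Psmd1 ranged from -0.47 to 0.021 and Psmd5 from -0.56 to 0.065 without a library.

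In MUS vs. Control the beta genes had medians of -0.088 with quantile normalization, -0.00076 with fragment-total scaling and -0.00073 with voom, and the non-ATPase genes -0.023 with quantile normalization and -0.011 with fragment-total scaling and gene-length correction. Under quantile normalization, fragment-total scaling and voom, Psmb4 was at -0.19, -0.071 and -0.072, Psmb5 at -0.19, -0.067 and -0.066, Psmd1 at -0.023, -0.21 and -0.22 and Psme3 at -0.46, -0.52 and -0.53. With fragment-total scaling and gene-length correction Psmb5 was at -0.11, Psmd1 at -0.26 and Psme3 at -0.39, and median-ratio scaling put Psme3 at -0.052. Without a library Psmb5 ranged from -0.14 to 1.07, Psmd5 from -0.60 to 0.029 and Psme3 from -0.20 to 0.21. Psmd5, lower in MUS, was called with voom and with fragment-total scaling and gene-length correction.

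In MUS vs. Model Psmb6 was at 0.077 with gene-length correction and 0.082 with GC and gene-length correction, with or without the replicate block, and at 0.081 with fragment-total scaling and gene-length correction. Without a library the beta median ranged from -0.61 to 0.073, Psma2 from -0.23 to 0.64, Psma3 from -0.25 to 0.35, Psma6 from -1.19 to 0.037, Psmb6 from -0.49 to 0.34, Psmb7 from -0.65 to 0.073, Psmd5 from -0.089 to 0.016, Psme1 from -0.13 to 0.63 and Psme2 from -1.08 to 0.0042.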
